A study of Mus musculus with 36 samples.

Results

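The microRNAs (miRNAs) of the mouse left ventricle 1 day after myocardial infarction (MI) were compared with those of sham-operated ventricles. MI was made in male C57BL/6 mice by ligating the left anterior descending coronary artery, and sham mice had the operation without occlusion. The mice were 8 weeks old at the operation, and the labels name no genetic change or drug in either group. Each group had 3 small RNA libraries, numbered 2, 4 and 9 for MI and 1, 3 and 5 for sham in the labels and called replicates 1 to 3 in that order here. RNA was pooled, the number of animals behind a library was not given in the sources used here, and the p-values therefore measure the spread between these libraries. An miRNA was a member of the comparison when it reached 10 RPM (reads per 1000000 reads) in at least 3 of the 6 libraries, and 283 of the 624 listed miRNAs did. Of the members, 241 reached 10 RPM in all 6 libraries, 36 passed through the 3 MI libraries without all 3 sham libraries, and 6 passed through the 3 sham libraries without all 3 MI libraries. Just inside the limit were miR-409-3p, miR-431-5p and miR-29c-5p, for which the third highest values were 10.2, 10.3 and 10.5 RPM, and just outside it were miR-744-3p at 9.56 RPM, miR-16-2-3p at 9.81 RPM and miR-33-5p at 9.999 RPM. The other 341 miRNAs fell under the limit. Small RNA libraries of the same design at 1 week and 8 weeks after MI served for the comparison of stages and for the shared estimate of spread.

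An miRNA is cut from a hairpin precursor, and either arm of the hairpin (5p or 3p) can be loaded into the Argonaute protein as the mature strand. The loaded miRNA pairs with messages mainly through its seed, bases 2 to 8, and lowers their stability and translation. Many miRNAs mark a cell type: miR-1, miR-133, miR-208 and miR-499 are miRNAs of striated muscle, miR-223 and miR-142 of blood leukocytes, miR-126 of endothelium, miR-143, miR-145, miR-199a and miR-214 of smooth muscle and fibroblasts, and miR-144, miR-451a and miR-486 of red cells, with miR-486 also made in muscle. In a ventricle after coronary ligation cardiomyocytes die and neutrophils and then monocytes enter the tissue. Bulk RNA cannot tell fewer cells of a type from less RNA per cell.

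The mature sequences of the miRNAs on which the results turn are given from RefSeq (build GRCm38.p6), 5′ to 3′, with the seed in capitals, so that members sharing a seed can be set side by side. A RefSeq sequence was matched to 235 of the 283 members. The leukocyte miRNAs miR-223-3p and miR-142a-5p had these sequences.
miR-223-3p: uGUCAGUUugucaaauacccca
miR-142a-5p: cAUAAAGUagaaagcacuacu
The 2 arms of the miR-21a hairpin, a hairpin raised in many injured tissues, were as follows.
miR-21a-5p: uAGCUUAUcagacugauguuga
miR-21a-3p: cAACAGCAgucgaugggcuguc
miR-132-3p and miR-212-3p come from neighbouring hairpins on chromosome 11 and share 1 seed, and miR-221-3p and miR-222-3p come from neighbouring hairpins on chromosome X and share another.
miR-132-3p: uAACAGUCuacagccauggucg
miR-212-3p: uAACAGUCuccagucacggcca
miR-221-3p: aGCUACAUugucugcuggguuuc
miR-222-3p: aGCUACAUcuggcuacugggucu
miR-210-3p, whose gene is induced by hypoxia, and miR-15b-5p, a member of the miR-15/16 family, stood among the other miRNAs that rose.
miR-210-3p: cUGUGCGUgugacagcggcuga
miR-15b-5p: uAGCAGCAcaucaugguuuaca
The muscle miRNAs miR-208a-3p and miR-208b-3p lie in introns of the myosin genes Myh6 and Myh7 and share a seed, and miR-499-5p lies in Myh7b.
miR-208a-3p: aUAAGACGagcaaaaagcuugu
miR-208b-3p: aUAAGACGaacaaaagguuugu
miR-499-5p: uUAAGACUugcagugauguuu
3 members of the miR-30 family with 1 seed were annotated.
miR-30a-5p: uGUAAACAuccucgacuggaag
miR-30c-5p: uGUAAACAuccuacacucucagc
miR-30e-5p: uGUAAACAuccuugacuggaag
The last 3 are listed under names without an arm, and they showed the largest differences of all members.
miR-6240: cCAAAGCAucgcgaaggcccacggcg
miR-2137: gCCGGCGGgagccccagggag
miR-5121: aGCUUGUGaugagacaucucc

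The MI libraries held 12094554 to 15999649 reads on listed miRNAs (median 14885104), against 36691903 to 39054674 in the sham libraries (median 37522433), so the MI libraries were the shallower ones. Pearson's r of log values across miRNAs was 0.995 to 0.998 between libraries of 1 group and 0.927 to 0.934 between libraries of different groups (miRNAs are not independent replicates). The 10 most abundant miRNAs took 67.3% to 67.9% of reads in the MI libraries, against 72.1% to 73.7% in the sham libraries. Values below are normalized CPM, that is counts per 1000000 reads scaled by library total and by trimmed mean (TMM) factors of 1.09 to 1.18 for MI and 0.776 to 0.810 for sham. Differences are log2 fold changes (MI over sham) ± standard error (SE) from the edgeR quasi-likelihood test with Benjamini-Hochberg adjustment over the 283 members. A member is called changed at an adjusted p under 0.05.

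Most of the measured miRNAs, 192 of 283 (67.8%), differed after MI. 90 members (31.8% of those tested) were higher and 102 (36.0%) were lower in the MI libraries, and 91 were not called. 42 members were called with a rise of over 1 on the log2 scale and 22 with a fall of over 1, and 20 and 3 beyond 2. The member rule bears on these counts, because 36 members entered through the MI libraries and 6 through the sham libraries: among the 241 members at 10 RPM or more in all 6 libraries 60 were higher and 101 lower, with 22 rises and 21 falls of over 1 and 5 rises and 3 falls of over 2. The 6 libraries did not overlap between the groups in 202 members (71.4%), of which 182 were called. The count of falls rested on the scaling. With library totals alone in place of TMM factors, every log2 fold change lay 0.50 to 0.52 higher, 159 members (56.2%) were higher and 32 (11.3%) lower. The 90 members called higher with TMM factors were all higher with library totals too, whereas of the 102 called lower 32 stayed lower, 63 were not called and 7 were higher. The median log2 fold change over all members was -0.12 with TMM factors, 0.40 with library totals, -0.07 with median-ratio factors and -0.15 with upper-quartile factors. Counts for lists at 1 day are therefore given with their library-total counts where these differ. The library-total value of a member at 1 day is given where it loses a call or turns a direction.

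**Figure D1:**
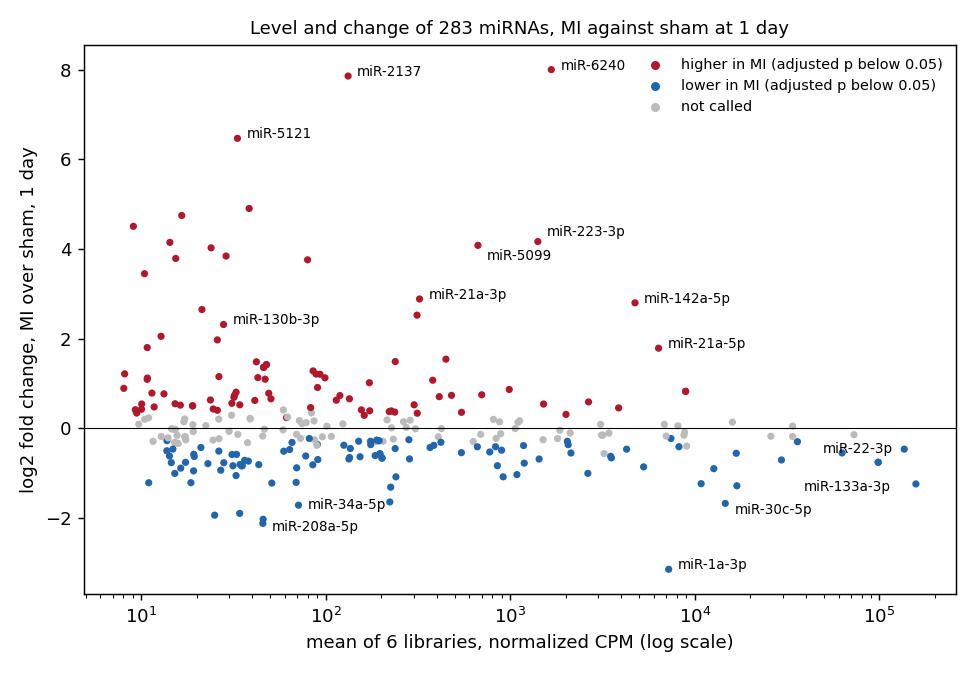
Log2 fold change, MI over sham at 1 day, of the 283 members (vertical axis) against their mean normalized CPM over the 6 libraries (horizontal axis, log scale), coloured by the edgeR call as higher, lower or not called. miR-6240 and miR-2137 lie near 8, miR-1a-3p is the lowest point at -3.14.

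By share of reads, the 5 most abundant names were the same in both groups. miR-133a-3p, which with miR-1 comes from shared muscle transcripts, took 10.6% ± 0.602 of reads in the MI libraries and 17.5% ± 0.552 in the sham libraries (SD, n = 3 each). miR-22-3p, a muscle-enriched miRNA, took 12.9% ± 0.282 of reads in the MI libraries and 12.5% ± 0.759 in the sham libraries, and so became the most read miRNA after MI. The sequence of miR-486a-5p and miR-486b-5p, counted under both names, took 8.26% ± 0.352 of reads in the MI libraries and 9.77% ± 0.652 in the sham libraries. miR-143-3p, of smooth muscle, took 7.83% ± 0.501 of reads in the MI libraries and 6.03% ± 0.736 in the sham libraries, and miR-26a-5p took 5.75% ± 0.108 of reads in the MI libraries and 5.89% ± 0.0378 in the sham libraries. A share of reads is not a share of molecules, since miRNAs are ligated and amplified unequally, but the same miRNA can be compared between libraries. The largest move among these names was therefore the loss of miR-133a-3p.

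The miRNAs of striated muscle were lower after MI. Of 9 members of this list (miR-1a, miR-133a, miR-133b, miR-208a, miR-208b and miR-499, any arm), 6 fell and 3 were not called, with a median log2 fold change of -0.77 against -0.12 over all members; with library totals 3 stayed lower, the median was -0.26, and 1, miR-133a-5p, was higher. miR-1a-3p, which represses growth and cell-cycle messages in cardiomyocytes, had 1675, 1403 and 1331 normalized CPM in the MI libraries, against 12579, 12157 and 14132 in the sham libraries. Its log2 fold change was -3.14 ± 0.28, adjusted p 7.09e-08, and -2.62 with library totals. The highest MI value thus lay far below the lowest sham value. miR-133a-3p had 100285, 85603 and 95740.3 normalized CPM in the MI libraries, against 207981, 225086 and 230600.4 in the sham libraries (-1.24 ± 0.31, adjusted p 0.00206). Although miR-1 and miR-133a hairpins are transcribed together, the fall of miR-1a-3p was 1.90 log2 units deeper than that of miR-133a-3p, a difference that was not tested. miR-133b-3p, from a separate locus, had 874, 795 and 651 normalized CPM in the MI libraries, against 1021, 735 and 949.6 in the sham libraries, which was not called (-0.22 ± 0.21, adjusted p 0.369, and 0.29 with library totals).

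The main arms of the miRNAs embedded in myosin genes had smaller falls than miR-1a-3p. miR-208a-3p had 883, 864 and 889 normalized CPM in the MI libraries, against 1552, 1547 and 1406 in the sham libraries (-0.77 ± 0.22, adjusted p 0.00619), and miR-208b-3p had 228, 231 and 198 normalized CPM in the MI libraries, against 341, 331 and 379 in the sham libraries (-0.68 ± 0.21, adjusted p 0.0103). miR-499-5p had 632, 656 and 552 normalized CPM in the MI libraries, against 1110.0, 970.1 and 1190.3 in the sham libraries (-0.83 ± 0.32, adjusted p 0.0318), but this call was lost when any library other than sham replicate 2 was left out (log2 fold changes of -0.76 to -0.88). None of these 3 falls was called with library totals, where the log2 fold changes were -0.26 for miR-208a-3p, -0.16 for miR-208b-3p and -0.31 for miR-499-5p. The passenger arm miR-208a-5p fell further, with 16.4, 15.1 and 19.7 normalized CPM in the MI libraries, against 84.4, 83.7 and 54.5 in the sham libraries (-2.12 ± 0.27, adjusted p 3.93e-06). In mRNA libraries that carry the same numbers in the labels, all 10 cardiomyocyte markers (such as Myh6, Tnnt2 and Atp2a2) were lower, and their sum was 11577 to 14539.6 FPKM in the MI libraries, against 32578 to 34815 FPKM in the sham libraries. The part of cardiomyocyte number in the falls of these miRNAs was not tested.

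Several miRNAs of leukocytes rose strongly after MI. Of 10 members of the list, 6 rose, 1 fell and 3 were not called, with a median of 2.01 against -0.12 over all members; with library totals 7 rose and 1 fell, and with upper-quartile factors 6 rose and 2 fell. miR-223-3p, which tunes the making and activity of neutrophils, had 2095, 3338 and 2584 normalized CPM in the MI libraries, against 131, 179 and 136 in the sham libraries (4.17 ± 0.25, adjusted p 6.49e-10). Its other arm, miR-223-5p, had 15.7, 20.7 and 21.0 normalized CPM in the MI libraries, against 1.51, 2.54 and 1.19 in the sham libraries (3.45 ± 0.32, adjusted p 1.09e-07). Neither arm overlapped between the groups. miR-142a-5p, made in all blood lineages, had 7137, 9468 and 8262 normalized CPM in the MI libraries, against 1107, 1349.9 and 1106 in the sham libraries (2.80 ± 0.15, adjusted p 2.19e-10), and miR-142a-3p had 394, 568 and 636 normalized CPM in the MI libraries, against 89.5, 120.4 and 67.1 in the sham libraries (2.53 ± 0.24, adjusted p 1.78e-07). miR-147-3p, which is induced in macrophages by Toll-like receptors, had 27.9, 34.3 and 33.8 normalized CPM in the MI libraries, against 1.08, 1.66 and 0.825 in the sham libraries (4.75 ± 0.25, adjusted p 1.66e-10), so it was near the floor of the sham libraries. Like miR-223-5p, it met the member rule through the MI libraries only.

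The inflammation-induced members of the list split. miR-146b-5p, which with miR-146a-5p shares a seed and damps Toll-like receptor signalling, had 292, 367 and 395 normalized CPM in the MI libraries, against 107, 154 and 113 in the sham libraries (1.49 ± 0.31, adjusted p 0.000517). miR-146a-5p had 147, 163 and 198 normalized CPM in the MI libraries, against 182, 240.3 and 202 in the sham libraries (-0.30 ± 0.19, adjusted p 0.179), a difference that was not called and was 0.22 with library totals. miR-155-5p, an miRNA of activated macrophages and lymphocytes, fell, with 39.4, 39.7 and 46.5 normalized CPM in the MI libraries, against 98.5, 103 and 87.5 in the sham libraries (-1.20 ± 0.11, adjusted p 6.34e-08, and -0.69 with library totals). miR-150-5p, of mature lymphocytes, had 581, 528 and 591 normalized CPM in the MI libraries, against 608, 704 and 768 in the sham libraries (-0.29 ± 0.14, adjusted p 0.0732), which was called lower only without sham replicate 1 (-0.38) among the left-out libraries and was 0.22 with library totals, and miR-342-3p had 103, 103 and 96.1 normalized CPM in the MI libraries, against 115, 118 and 109 in the sham libraries (-0.18 ± 0.09, adjusted p 0.0836). With library totals miR-342-3p was higher (0.34, adjusted p 0.00579 from the same edgeR test).

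In the mRNA libraries all 8 neutrophil markers tested (such as S100a8, S100a9 and Csf3r) were higher, and their sum was 6228 to 10156 FPKM in the MI libraries, against 18.8 to 39.0 FPKM in the sham libraries. Of 7 macrophage and monocyte markers 5 were higher and none lower, with a sum of 551 to 842 FPKM in the MI libraries, against 141 to 208 FPKM in the sham libraries, and all 3 lymphocyte markers tested were higher, with a sum of 2.14 to 2.69 FPKM in the MI libraries, against 0.610 to 0.758 FPKM in the sham libraries. Among these 3 lists 1 value was 0, that of the lymphocyte marker Cd3e in sham replicate 1. The background of these counts is wide, since 39.7% of the 12858 mRNAs tested were called higher and 30.6% lower by limma (5111 and 3935), a balance that quantile normalization turned to 4356 higher and 5407 lower. How far cell entry accounts for the rises of the leukocyte miRNAs was not tested.

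Both arms of miR-21a rose. miR-21a-5p, which is abundant in fibroblasts and leukocytes, had 9554, 9525 and 10511 normalized CPM in the MI libraries, against 2769.7, 3343 and 2437 in the sham libraries (1.79 ± 0.18, adjusted p 3.58e-07). miR-21a-3p had 602, 617 and 485 normalized CPM in the MI libraries, against 76.3, 75.6 and 78.3 in the sham libraries (2.89 ± 0.20, adjusted p 2.83e-09). The 3 MI values of each arm lay close together and far above the sham values. Their host gene Vmp1 also rose, with 41.5 ± 4.58 FPKM in the MI libraries and 15.7 ± 0.696 FPKM in the sham libraries (SD, n = 3 each), with a log2(FPKM + 1) difference of 1.35 and a limma adjusted p of 9.05e-09.

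All 4 mature miRNAs of the locus of miR-132 and miR-212 rose, with a median of 1.19. These miRNAs are induced by CREB signalling and promote hypertrophic growth of cardiomyocytes in mice. miR-132-3p had 132, 119.9 and 120.3 normalized CPM in the MI libraries, against 62.7, 47.4 and 50.2 in the sham libraries (1.21 ± 0.14, adjusted p 1.1e-06), and miR-212-3p, with the same seed, had 38.3, 37.3 and 33.7 normalized CPM in the MI libraries, against 17.9, 14.8 and 16.4 in the sham libraries (1.16 ± 0.17, adjusted p 1.68e-05). The other arms had log2 fold changes of 1.22 ± 0.16 for miR-132-5p and 0.74 ± 0.15 for miR-212-5p. Of these, miR-132-5p met the member rule through the MI libraries only.

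In the pair of miR-221 and miR-222, which repress the cell-cycle inhibitor p27, the rise was unequal. miR-222-3p had 127, 116 and 146 normalized CPM in the MI libraries, against 54.6, 68.1 and 45.9 in the sham libraries (1.21 ± 0.14, adjusted p 1.04e-06). miR-221-3p had 272, 267 and 260.2 normalized CPM in the MI libraries, against 223, 207 and 190.3 in the sham libraries (0.37 ± 0.08, adjusted p 0.00131). Both were called, and the log2 fold change of miR-222-3p was the larger by 0.85 units although both derive from 1 cluster, a gap that was not tested. miR-221-5p was not called (-0.21 ± 0.25, and 0.30 with library totals).

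The hypoxia miRNA miR-210 rose in both arms. miR-210-3p, a target of the hypoxia-inducible factor that represses mitochondrial iron-sulphur cluster assembly, had 162, 126 and 121 normalized CPM in the MI libraries, against 58.9, 55.1 and 72.2 in the sham libraries (1.13 ± 0.12, adjusted p 5.48e-07). miR-210-5p had 56.8, 32.4 and 34.6 normalized CPM in the MI libraries, against 8.21, 11.1 and 12.1 in the sham libraries (1.98 ± 0.25, adjusted p 3.46e-06). In both arms the lowest MI library lay above the highest sham library. Of these arms miR-210-5p met the member rule through the MI libraries only.

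**Figure D2:**
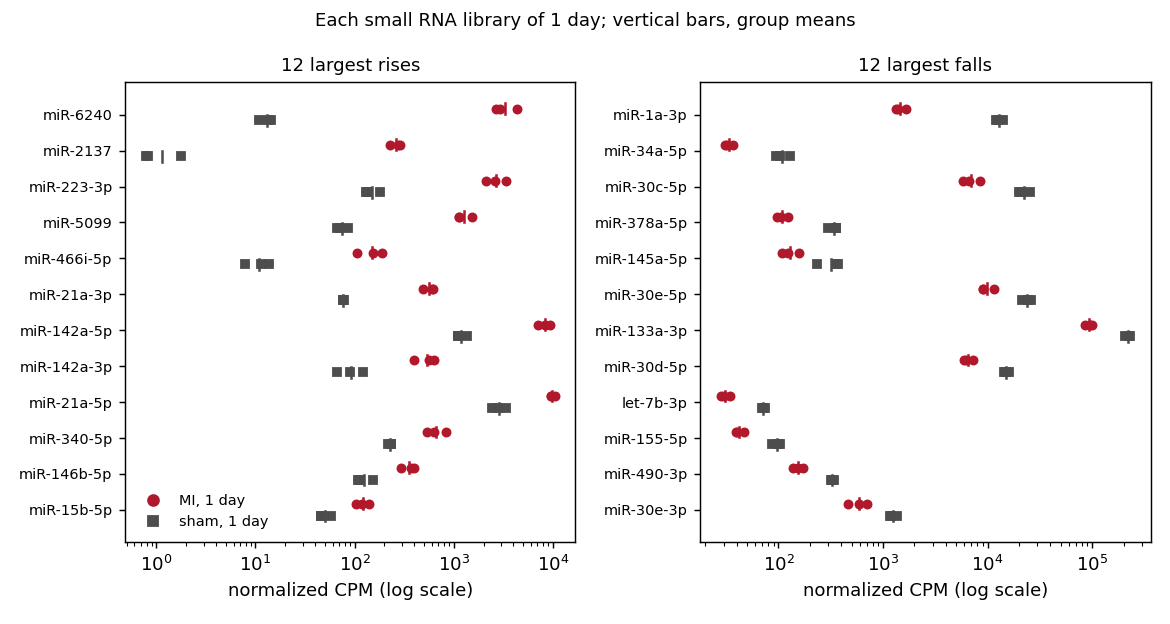
Normalized CPM (horizontal axis, log scale) in each of the 3 MI and 3 sham libraries of 1 day, for the 12 largest rises (left) and 12 largest falls (right) named by rule, with MI as circles, sham as squares and vertical bars at the group means. The circles and squares of each miRNA do not overlap, since the rule required it, and the widest gaps are those of miR-6240 and miR-2137 among the rises and of miR-1a-3p among the falls.

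The miR-30 family was the only list of at least 5 members in which every member fell. The family is abundant in cardiomyocytes, where miR-30 and miR-133 repress connective tissue growth factor. All 10 members were called lower, with log2 fold changes of -1.67 to -0.524 and a median of -0.90; with library totals all 10 stayed below 0 and 6 were called. miR-30c-5p had 6694, 5851 and 8405 normalized CPM in the MI libraries, against 20972, 25544 and 20204 in the sham libraries (-1.67 ± 0.17, adjusted p 3.55e-07). miR-30e-5p had 9057, 9099 and 11422 normalized CPM in the MI libraries, against 24177, 26061 and 21487 in the sham libraries (-1.28 ± 0.14, adjusted p 5.48e-07). miR-30d-5p had 6182, 5932 and 7269 normalized CPM in the MI libraries, against 14500.1, 16002 and 15009 in the sham libraries (-1.23 ± 0.09, adjusted p 4.93e-09). The smallest of the 3 annotated members with 1 seed was the fall of miR-30a-5p, the most abundant of the family, with 22772, 20755 and 23747 normalized CPM in the MI libraries, against 37379.9, 36299 and 35765 in the sham libraries (-0.70 ± 0.08, adjusted p 8.04e-07). The members thus fell by unequal amounts although miR-30a-5p, miR-30c-5p and miR-30e-5p share their seed. The cluster of miR-30c and miR-30e on chromosome 4 lies in Nfyc, which had 11.5 ± 0.681 FPKM in the MI libraries and 14.7 ± 0.584 FPKM in the sham libraries (log2(FPKM + 1) difference -0.33, limma adjusted p 0.000445).

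Other families that are abundant in muscle or in adult tissue mostly fell by small amounts that the scaling decides. Of 17 let-7 members (let-7 miRNAs hold back growth and are high in differentiated tissue), 10 fell and 2 rose with a median of -0.26, but with library totals 10 rose and 2 fell. The 2 falls that stayed were those of the passenger arms let-7b-3p and let-7f-1-3p. let-7b-3p had 34.2, 28.1 and 29.9 normalized CPM in the MI libraries, against 74.5, 70.7 and 69.0 in the sham libraries (-1.22 ± 0.10, adjusted p 3.65e-08, and -0.71 with library totals). Of 5 miR-29 members, which repress collagen messages, 4 fell and none rose with a median of -0.54, whereas library totals gave 1 fall and 1 rise. miR-29c-3p had 474, 429 and 425 normalized CPM in the MI libraries, against 631, 598 and 701 in the sham libraries (-0.54 ± 0.12, adjusted p 0.00103, and -0.02 and not called with library totals), and miR-29a-3p had 3555, 3011 and 2988 normalized CPM in the MI libraries, against 2945, 2819.9 and 3198 in the sham libraries (0.09 ± 0.09, adjusted p 0.375, and 0.61 and called with library totals). Of 6 miR-181 members 4 fell and none rose, but with library totals 2 rose and none fell.

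Of 13 miRNAs listed as abundant in heart, 9 fell and 1 rose with a median of -0.46; with library totals 2 fell and 3 rose. miR-378a-5p, from an intron of the metabolic coactivator gene Ppargc1b, had 122, 96.4 and 106 normalized CPM in the MI libraries, against 356, 301 and 353 in the sham libraries (-1.64 ± 0.19, adjusted p 1.76e-06). miR-490-3p had 154, 138 and 172 normalized CPM in the MI libraries, against 325, 337 and 315 in the sham libraries (-1.08 ± 0.17, adjusted p 5.05e-05). Both of these kept a negative log2 fold change with library totals (-1.13 and -0.57). miR-26a-5p and miR-22-3p had log2 fold changes of -0.55 ± 0.07 and -0.46 ± 0.11, against -0.03 and 0.05 with library totals, so the direction for miR-22-3p depends on the scaling. miR-532-5p was the 1 member of this list that rose (0.73 ± 0.11).

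Smooth muscle and fibroblast miRNAs moved both ways. Of 16 members of this list 5 rose, 6 fell and 5 were not called, with a median of -0.13. With library totals 10 rose and 1 fell. These counts lay near the shares over all members, 31.8% higher and 36.0% lower with a median of -0.12. With library totals those shares were 56.2% and 11.3%. miR-145a-5p, which maintains smooth muscle differentiation, had 124, 108 and 156 normalized CPM in the MI libraries, against 353, 373 and 236 in the sham libraries (-1.31 ± 0.24, adjusted p 0.000156, and -0.80 with library totals). miR-143-3p, from the same locus, was not called (-0.14 ± 0.10), and neither was miR-214-3p (-0.13 ± 0.13), but with library totals both were called higher (0.38 and 0.38). The sequence counted as miR-199a-3p and miR-199b-3p had 12517, 12149 and 9519.8 normalized CPM in the MI libraries, against 6337, 5879 and 7042 in the sham libraries (0.83 ± 0.11, adjusted p 3.98e-06). Smooth muscle markers summed to 32.3 to 44.7 FPKM in the MI libraries, against 46.9 to 52.5 FPKM in the sham libraries, with 1 of 3 lower, and fibroblast markers summed to 250.2 to 283 FPKM in the MI libraries, against 219 to 301 FPKM in the sham libraries, with 2 of 6 higher.

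The endothelial miRNA miR-126 changed little on the TMM scale. miR-126a-5p had 37177, 32797 and 33531 normalized CPM in the MI libraries, against 33495, 29189 and 36914 in the sham libraries (0.06 ± 0.12, adjusted p 0.674), and miR-126a-3p had 8569.7, 7806 and 8457 normalized CPM in the MI libraries, against 8939, 8981 and 9609.5 in the sham libraries (-0.15 ± 0.10, adjusted p 0.186). With library totals both were called higher (0.57 and 0.36). Their host gene Egfl7 had 51.4 ± 1.55 FPKM in the MI libraries and 35.3 ± 4.40 FPKM in the sham libraries (log2(FPKM + 1) difference 0.54, limma adjusted p 0.000482). Endothelial markers, Egfl7 among them, summed to 245 to 286 FPKM in the MI libraries, against 182 to 221 FPKM in the sham libraries. Of these 6 markers 4 were higher and 1, Kdr, was lower (-0.66).

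The erythroid list split by gene. miR-144-3p, which with miR-451a forms 1 erythroid transcript, had 534, 571 and 441 normalized CPM in the MI libraries, against 202, 275 and 257 in the sham libraries (1.08 ± 0.13, adjusted p 2.07e-06). miR-451a had 1015, 1218 and 1226 normalized CPM in the MI libraries, against 966, 1315 and 863 in the sham libraries (0.14 ± 0.19, adjusted p 0.524), which was not called except with library totals (0.65). The shared sequence of miR-486a-5p and miR-486b-5p had 71321, 69053 and 79498 normalized CPM in the MI libraries, against 127892, 125912 and 116894 in the sham libraries (-0.75 ± 0.18, adjusted p 0.00132), a fall that was not called with library totals (-0.24). Over the 7 names 2 rose and 4 fell. With library totals 3 rose and none fell. Over all members the shares were 31.8% higher and 36.0% lower, or 56.2% and 11.3% with library totals. Haemoglobin and other erythroid mRNAs summed to 1212 to 2013 FPKM in the MI libraries, against 524 to 1274 FPKM in the sham libraries, and none of 5 was called.

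Several clusters linked to growth rose. In the miR-17-92 cluster and its paralogs, whose miRNAs promote proliferation, 8 of 11 members rose and 1 fell with a median of 0.74; with library totals 9 rose and none fell. The 4 members of the miR-106b cluster on chromosome 5 rose together, with log2 fold changes of 1.13 ± 0.12 for miR-106b-3p, 0.91 ± 0.12 for miR-106b-5p, 0.87 ± 0.09 for miR-25-3p and 0.74 ± 0.09 for miR-93-5p. The miR-17-92 cluster itself on chromosome 14 was uneven: miR-18a-5p had 13.4, 17.5 and 13.2 normalized CPM in the MI libraries, against 7.0, 7.57 and 6.07 in the sham libraries (1.1 ± 0.19, adjusted p 8.94e-05), while miR-20a-5p was lower (-0.37 ± 0.15, adjusted p 0.0413). The fall of miR-20a-5p kept its call under only 3 alternatives, lost it under 13 and turned direction under 3 (0.14 with library totals). The losses included median-ratio and upper-quartile factors and each left-out library other than sham replicate 3 (-0.31 to -0.42). miR-92a-1-5p, the passenger arm of miR-92a-1, had 36.1, 38.5 and 36.0 normalized CPM in the MI libraries, against 5.08, 6.79 and 5.71 in the sham libraries (2.65 ± 0.14, adjusted p 1.68e-10). Members of 1 transcript therefore did not share 1 log2 fold change. Both miR-18a-5p and miR-92a-1-5p, counted among the 8 rises, met the member rule through the MI libraries only.

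In the miR-15/16 family, which restrains the cell cycle, 4 of 10 members rose and 3 fell. With library totals 7 rose and none fell. Over all members the shares were 31.8% higher and 36.0% lower, or 56.2% and 11.3% with library totals, so these counts lay near the background. miR-15b-5p had 104, 141 and 118 normalized CPM in the MI libraries, against 45.4, 57.6 and 46.2 in the sham libraries (1.28 ± 0.13, adjusted p 4.52e-07). Its neighbour miR-16-5p, which is made from a pair of loci, was not called (0.14 ± 0.08). It stayed so under 11 alternatives and was called under 8, among them median-ratio factors, DESeq2 and library totals (0.65). miR-195a-5p, with the same seed, fell (-0.31 ± 0.10, adjusted p 0.0107), but with library totals its value was 0.21, and without MI replicate 3 its call was lost (-0.26). Within the cluster of miR-23a, miR-27a and miR-24 on chromosome 8, miR-27a-5p had 16.6, 17.6 and 16.1 normalized CPM in the MI libraries, against 4.44, 4.68 and 5.28 in the sham libraries (1.80 ± 0.14, adjusted p 1.13e-08) and miR-27a-3p rose (0.46 ± 0.11, adjusted p 0.00158). Of these 2 arms miR-27a-5p met the member rule through the MI libraries only. miR-24-3p fell (-0.55 ± 0.14, adjusted p 0.00267, and -0.03 and not called with library totals). Over the 8 members of the miR-23/27/24 list 2 rose and 4 fell; with library totals 5 rose and none fell.

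The miR-34 family, whose genes are p53 targets, had 2 members, and they moved in opposite directions. miR-34a-5p had 36.6, 32.5 and 31.0 normalized CPM in the MI libraries, against 129.6, 94.1 and 104 in the sham libraries (-1.71 ± 0.14, adjusted p 4.38e-08). miR-34c-5p had 68.5, 57.8 and 66.0 normalized CPM in the MI libraries, against 29.5, 36.3 and 24 in the sham libraries (1.1 ± 0.20, adjusted p 0.000187). Both calls held with library totals (-1.20 and 1.61). In the list of miR-10, miR-99, miR-100 and miR-125, 2 of 12 rose and 4 fell. With library totals 6 rose and 1 fell. Over all members the shares were 31.8% higher and 36.0% lower, or 56.2% and 11.3% with library totals. miR-125b-5p had 8844, 7016 and 10701 normalized CPM in the MI libraries, against 16513, 17909 and 15011 in the sham libraries (-0.90 ± 0.15, adjusted p 7.55e-05), whereas miR-125b-1-3p, from 1 of its hairpins, had 64.6, 59.9 and 61.8 normalized CPM in the MI libraries, against 20.4, 22.5 and 23.6 in the sham libraries (1.49 ± 0.11, adjusted p 1.13e-08). Of 13 members from the imprinted Dlk1-Dio3 domain of chromosome 12, 3 rose and 1 fell; with library totals 12 rose and none fell. The single member of the miR-200 list, miR-141-3p, was not called (0.21 ± 0.54).

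**Figure D3:**
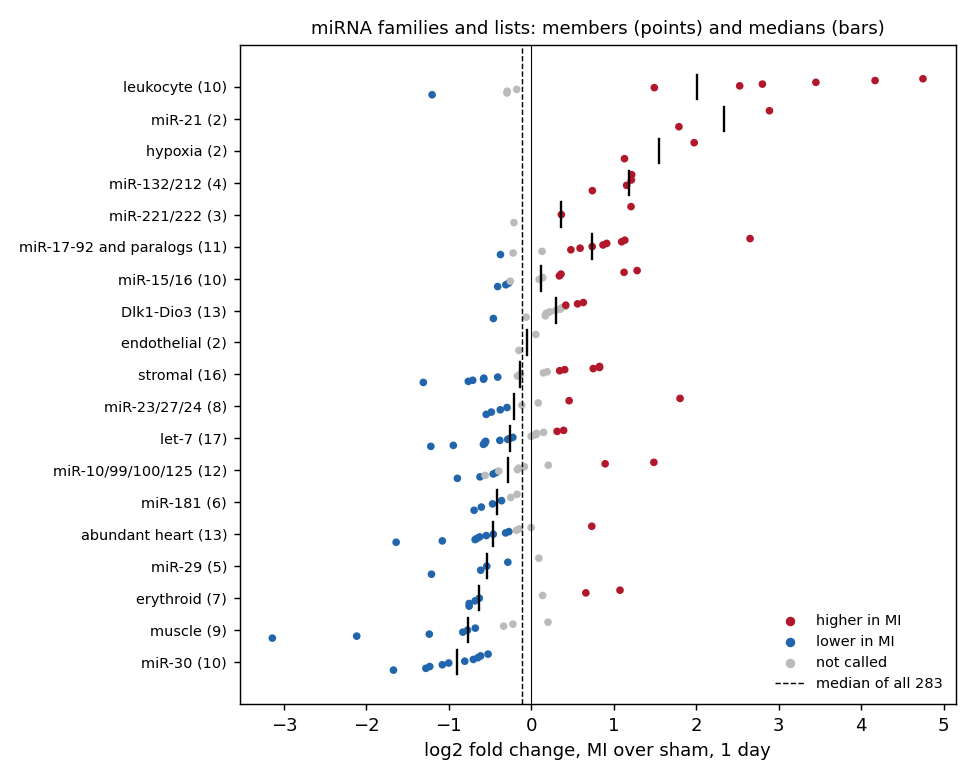
Log2 fold changes at 1 day (horizontal axis, MI over sham) of the members of each miRNA list (rows), 1 point per miRNA and coloured by the edgeR call, with the list median as a bar, the number of members in brackets and the median of all 283 members (-0.12) as a broken line. All 10 miR-30 points are called lower, and 6 of 10 leukocyte points are called higher.

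The largest differences of all belonged to names without an arm. 20 members carry such names, and 11 of them were higher and 3 lower, against 79 higher and 99 lower of the 263 members whose names give the arm; with library totals 16 of the 20 were higher and none lower, against 143 higher and 32 lower of the 263. miR-6240 had 4378, 2645 and 2948 normalized CPM in the MI libraries, against 13.4, 10.9 and 14.5 in the sham libraries (8.00 ± 0.41, adjusted p 1.21e-10), or 0.375% ± 0.101 of reads in the MI libraries and 0.00102% ± 0.000146 in the sham libraries (SD, n = 3 each). miR-2137 had 285, 230.3 and 275 normalized CPM in the MI libraries, against 1.78, 0.780 and 0.825 in the sham libraries (7.86 ± 0.26, adjusted p 5.25e-13), and its lowest value rested on 23 reads. miR-2137 met the member rule through the MI libraries only, and miR-6240 did not reach 10 RPM in all 3 sham libraries. miR-5099 had 1528, 1127 and 1129 normalized CPM in the MI libraries, against 66.7, 71.1 and 85.1 in the sham libraries (4.09 ± 0.17, adjusted p 8.27e-12). No MI value of these 3 came within 10-fold of a sham value. miR-5121, miR-5126, miR-690, miR-3470a, miR-6538, miR-3470b and miR-6236, named after their values were seen, had log2 fold changes of 6.47, 4.91, 4.51, 4.15, 4.03, 3.85 and 3.79. miR-466i-5p, whose name does give the arm, had 189, 105 and 152 normalized CPM in the MI libraries, against 11.4, 7.77 and 13.7 in the sham libraries (3.76 ± 0.40, adjusted p 5.48e-07). Like miR-6240, it did not reach 10 RPM in all 3 sham libraries.

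Some of the members with the largest rises were rich in G and C. A RefSeq sequence was there for 10 members called over 3 log2 units higher. Of these 10, 5 had a GC content of at least 65%, against 12 of all 235 with a sequence, these 5 included. The median GC content of the 10 was 63.2%, against 47.6% over the 235. The 10 were picked by their rise, and the member rule bears on such a group. Of the 20 called rises of over 2 on the log2 scale, 15 were of members not at 10 RPM in all 6 libraries. The miR-2137 sequence shown above is 85.7% G and C, and that of miR-6240 is 69.2%. Exact matches in GRCm38.p6 were unique for 190 of the 235. Only 3 had over 20: miR-3470b with 44278, miR-574-5p with 863 and miR-690 with 606, so reads of these 3 cannot be assigned to 1 locus. The miR-5121 sequence at chr7:45126925-45126945 on the - strand lies within the annotated small nucleolar RNA gene Snord33, inside Rpl13a, so reads from that RNA and from an miRNA cannot be told apart; it had 73.9, 57.8 and 65.6 normalized CPM in the MI libraries, against 0.639, 0.577 and 0.990 in the sham libraries. miR-5121 met the member rule through the MI libraries only. With all 20 names left out of the fit, 74 members were higher and 103 lower.

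Beyond the lists, other well-measured members were among the largest changes. miR-340-5p had 535, 834 and 633 normalized CPM in the MI libraries, against 235, 218 and 232 in the sham libraries (1.55 ± 0.14, adjusted p 1.22e-07). Its host gene Rnf130 had 27.1 ± 1.3 FPKM in the MI libraries and 20.6 ± 1.81 FPKM in the sham libraries (log2(FPKM + 1) difference 0.39, limma adjusted p 0.0295). Further members, named after their values were seen, were miR-130b-3p with 36.6, 53.3 and 49.9 normalized CPM in the MI libraries, against 7.67, 11.7 and 8.68 in the sham libraries (2.32 ± 0.21, adjusted p 7.86e-08) and miR-139-5p with 224, 247 and 222.1 normalized CPM in the MI libraries, against 113, 108 and 121 in the sham libraries (1.02 ± 0.09, adjusted p 4.19e-08). The MI and sham values of both were well apart, but miR-130b-3p met the member rule through the MI libraries only. Among falls named in the same way, miR-185-5p had 16.3, 17.6 and 20.2 normalized CPM in the MI libraries, against 79.4, 76.4 and 64.9 in the sham libraries (-2.02 ± 0.13, adjusted p 1.49e-09), and miR-186-5p had 636, 598 and 909.7 normalized CPM in the MI libraries, against 1435, 1795 and 1144 in the sham libraries (-1.03 ± 0.19, adjusted p 0.000144).

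The arms of a hairpin come from 1 precursor, and the difference between their log2 fold changes hardly depends on the scaling, whereas the calls of the arms do. Both arms were members for 63 hairpins. Both were higher in 11, both lower in 15, and they were called in opposite directions in 3 (miR-574, miR-455 and miR-140), while 1 arm was called in 27 and neither in 7. These counts are for TMM factors. With library totals miR-455-3p (-0.06) was not called, nor was either arm of miR-26b (-0.14 for 5p and -0.11 for 3p), a hairpin with both arms lower. miR-574-5p averaged 11.4 normalized CPM, and its reads cannot be assigned to 1 locus. miR-455-5p averaged 9.47 normalized CPM. Neither of these rising arms reached 10 RPM in all 3 sham libraries, so both needed the MI libraries to meet the member rule. The median absolute difference between arms was 0.45, and it passed 1 in 10 hairpins. miR-140-3p, an miRNA known from cartilage and mesenchyme, had 848, 892 and 896 normalized CPM in the MI libraries, against 513, 495 and 558 in the sham libraries (0.75 ± 0.16, adjusted p 0.000636), whereas miR-140-5p had 27.1, 26.8 and 29.0 normalized CPM in the MI libraries, against 50.7, 46.0 and 38.7 in the sham libraries (-0.71 ± 0.17, adjusted p 0.0015). With library totals miR-140-5p was not called (-0.20).

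Among the 23 hairpins with both arms over 50 normalized CPM, miR-133a had the largest difference in favour of 5p, 1.44 ± 0.41 (5p minus 3p, SE taken as if the arms were independent), followed by let-7b with 1.22 ± 0.13. The 5p share of miR-133a reads was 0.825, 1.17 and 0.785% in the MI libraries, against 0.331, 0.375 and 0.313% in the sham libraries. miR-378a had the largest difference in favour of 3p, -1.46 ± 0.26, followed by miR-21a with -1.1 ± 0.27. The 5p share of miR-378a reads was 0.380, 0.312 and 0.326% in the MI libraries, against 1.02, 0.853 and 0.913% in the sham libraries. For miR-21a the 5p share was 94.1, 93.9 and 95.6% in the MI libraries, against 97.3, 97.8 and 96.9% in the sham libraries. The shares of miR-378a and miR-21a did not overlap between the groups, so the passenger arm of miR-21a gained more than the main arm, and that of miR-378a lost more. miR-142a showed no such gap (0.28 ± 0.29).

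**Figure D4:**
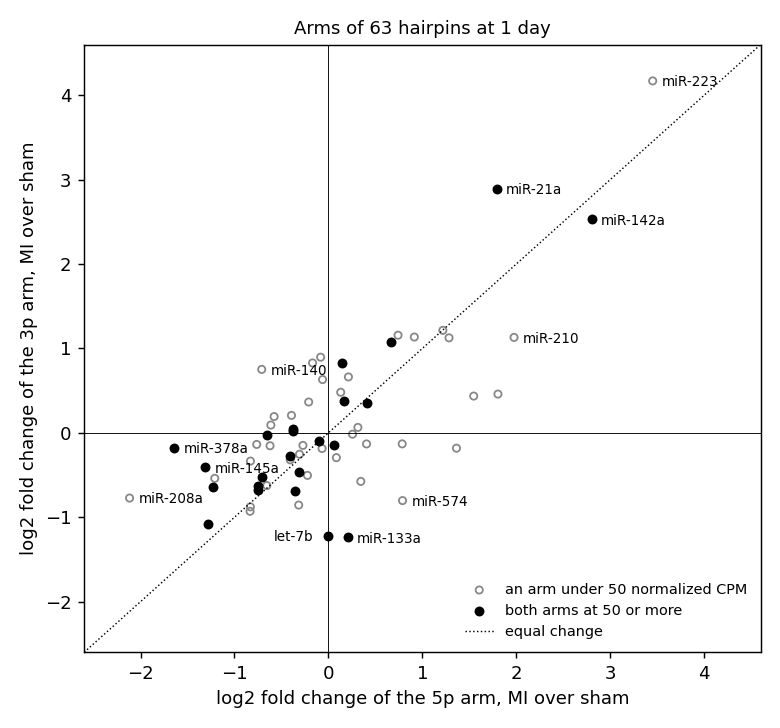
Log2 fold change of the 5p arm (horizontal axis) against that of the 3p arm (vertical axis) at 1 day, MI over sham, for the 63 hairpins with both arms among the members; filled points have both arms at 50 normalized CPM or more, and the dotted diagonal marks equal change. miR-142a lies near the diagonal, miR-21a above it, miR-133a below it, and miR-574 and miR-140 in quadrants of opposite sign. Reads of the 5p arm of miR-574 cannot be assigned to 1 locus.

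Intronic miRNAs were set beside the mRNA of their host gene in the libraries of the same numbers. For 42 pairs with the hairpin in the host by position and a host that was tested (25 host genes), both were higher in 8, both lower in 10 and called in opposite directions in 4, only the miRNA was called in 8, only the host in 10 and neither in 2. Differences of host genes are on the log2(FPKM + 1) scale, which understates those of low genes. With library totals for the miRNAs both were higher in 14, both lower in 3 and opposite in 3. Myh7b, host of miR-499, fell, with 0.421 ± 0.0340 FPKM in the MI libraries and 4.02 ± 0.476 FPKM in the sham libraries (-1.82, limma adjusted p 1.86e-05). Myh6, host of miR-208a, had 734 ± 99.3 FPKM in the MI libraries and 2762 ± 26.8 FPKM in the sham libraries (-1.92, limma adjusted p 0.000338). A pair called in opposite directions was that of Pank1, a coenzyme A synthesis gene, which had 0.752 ± 0.213 FPKM in the MI libraries and 6.18 ± 0.457 FPKM in the sham libraries (-2.04, limma adjusted p 9.93e-10), while its intronic miR-107-3p rose (0.71 ± 0.10, adjusted p 6.4e-06). Mcm7, host of the miR-106b cluster, had 2.86 ± 0.196 FPKM in the MI libraries and 2.54 ± 0.327 FPKM in the sham libraries and was not called (0.13, limma adjusted p 0.335), though all 4 miRNAs rose. Mest, host of miR-335, rose, with 12.2 ± 1.07 FPKM in the MI libraries and 2.66 ± 0.382 FPKM in the sham libraries (1.85, limma adjusted p 4.13e-08), while miR-335-5p and miR-335-3p were not called (-0.37 ± 0.16 and 0.05 ± 0.12), though miR-335-3p was called higher with library totals (0.56) and miR-335-5p, 0.14 with library totals, was called lower without MI replicate 3 (-0.46) or sham replicate 3 (-0.48).

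The change at 1 day was then compared with that at later stages, each against its own sham libraries, through the difference of the log2 fold changes. Against 1 week the difference was called in 215 members (76.0%), of which 117 (41.3%) had a larger log2 fold change at 1 day and 98 (34.6%) a smaller one. This balance turned with the scaling: library totals gave 81 larger and 137 smaller, and upper-quartile factors 91 and 116. Against 8 weeks it was called in 200 members (70.7%), and the counts were 109 (38.5%) and 91 (32.2%), against 102 and 100 with library totals and 72 and 134 with upper-quartile factors. Of the members called at 1 day, 66 were higher and 74 lower at 1 week as well, while 12 that rose at 1 day were lower at 1 week and 16 that fell at 1 day were higher. At 8 weeks 46 were again higher and 71 lower, 18 had turned from higher to lower and 17 from lower to higher. The difference itself was called for 28 of the members with opposite signs at 1 week and for 35 at 8 weeks. These turns hold for TMM factors, which were 1.54 to 1.56 for MI and 0.809 to 0.833 for sham at 1 week. At 8 weeks they were 1.13 to 1.21 and 0.735 to 0.781. MI factors thus lay above sham factors as at 1 day, where library totals gave higher log2 fold changes. Library-total values of the later stages are not given here, so falls at those stages may rest on the scaling.

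Among the largest differences in the later direction were members of the stromal list. miR-214-3p was not called at 1 day (-0.13) but had a log2 fold change of 3.61 at 1 week, with 1139, 1153 and 1087 normalized CPM in the MI libraries, against 88.6, 100.3 and 86.9 in the sham libraries. miR-31-5p fell at 1 day (-0.83 ± 0.15, adjusted p 0.000187, and -0.31 and not called with library totals), with 24.2, 25.3 and 26.9 normalized CPM in the MI libraries, against 43.4, 43.6 and 48.7 in the sham libraries, and had log2 fold changes of 2.79 at 1 week and 2.86 at 8 weeks. At 1 week its values were 425, 396 and 329.7 normalized CPM in the MI libraries, against 52.3, 57.7 and 56.4 in the sham libraries. Its direction therefore turned between the stages. miR-140-5p, lower at 1 day with TMM factors, had 1.46 at 1 week and 2.22 at 8 weeks. miR-455-3p had -0.58 at 1 day (-0.06 and not called with library totals) and 2.74 at 8 weeks, and miR-199a-5p had 0.15 and 3.24. miR-208b-3p, the miRNA of the slow myosin gene Myh7, had -0.68 at 1 day, -0.78 at 1 week and 1.66 at 8 weeks.

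Other members had a larger change at 1 day than later, or turned from a rise to a fall. The log2 fold change of miR-223-3p was 4.17 at 1 day but 2.07 a week after the operation, and by 8 weeks it was 1.04. At 1 week its values were 437, 526 and 353 normalized CPM in the MI libraries, against 109, 96.9 and 107 in the sham libraries. miR-139-5p had 1.02, -1.11 and -1.54 at the same stages, and miR-144-3p had 1.08, -0.82 and -0.64. Both of these rose at 1 day and were lower later with TMM factors. miR-132-3p had 1.21 at 1 day, 0.66 at 1 week and -0.51 at 8 weeks, also with TMM factors. miR-6240 had 8.00 at 1 day but was not called at 1 week (0.21) or 8 weeks (-0.55), with 7.49, 8.95 and 13.4 normalized CPM in the MI libraries, against 9.0, 9.09 and 7.69 in the sham libraries at 1 week. The high miR-6240 values were thus seen in the 3 MI libraries of 1 day alone among the 18 small RNA libraries.

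**Figure D5:**
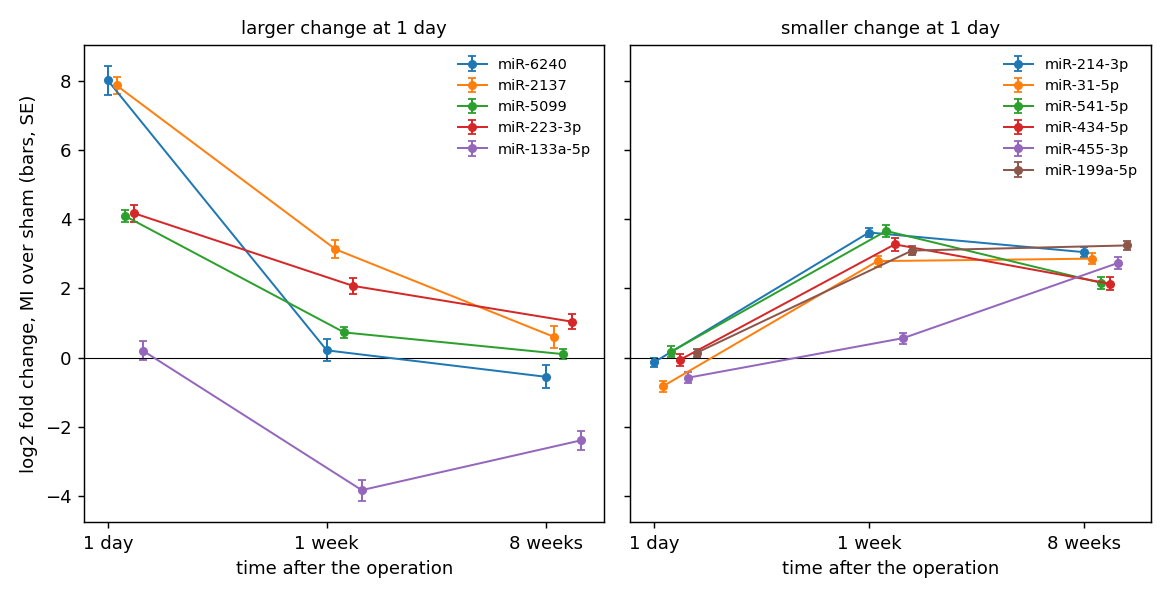
Log2 fold changes, MI over sham with each stage against its own sham libraries (vertical axis), by stage from 1 day to 8 weeks (horizontal axis) for the members named for the stage differences; error bars are SE. miR-6240 and miR-223-3p are highest at 1 day, while miR-31-5p and miR-214-3p are below 0 at 1 day and well above 0 at both later stages.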

How the data were processed

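Small RNA from mouse left ventricle was sequenced in 18 libraries, of which 6 are of 1 day. The deposited table gives the read count of each mature miRNA in each library and the RPM; the RPM was used only for the member rule and for limma on log2(RPM + 1) and log2(RPM + 10). The mapper and the miRBase release were not given in the sources used here, and a sequence with several names was counted by the authors under each name (274 distinct count profiles among the 283 members). The authors deposited mRNA levels as FPKM; the submitters' processing notes name TopHat2 2.0.13, Bowtie2 2.2.3, Cufflinks 2.2.1 and the build mm10.

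Counts were fitted with edgeR 4.0.16 (quasi-likelihood, TMM factors) in 1 model of 6 groups with 12 residual degrees of freedom. The common dispersion was 0.0214, a biological coefficient of variation of 14.6%. FPKM were fitted with limma 3.58.1 on log2(FPKM + 1) for genes at 1 FPKM or more in at least 3 of 18 libraries, and used for host genes and markers only. Alternatives, among them DESeq2 1.42.0, are in the closing section. Named miRNAs were the 12 largest rises and falls called at 1 day with no overlap and a mean of at least 50 normalized CPM, the 10 most abundant per group, members of the miRNA lists, and the 4 largest and 4 smallest differences from each later stage; others are said to be chosen after their values were seen. Members and lists were chosen with earlier results of these data known. Reads have no molecular identifiers, so errors at low counts cover counting and library spread only. Of the fits, only the edgeR comparison of MI with sham at 1 day was tested on simulated data.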

Additional observations from a re-analysis of the deposited data

Results flagged for a closer look

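For 11 miRNAs the log2 fold change at 1 day stood furthest from that at a later stage, by the edgeR test of the difference between the 2 changes. Each value below is the change at 1 day minus the change at the later stage ± SE, and each stage was set against its own 3 sham libraries.

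Against 1 week the change at 1 day was larger for miR-6240 by 7.79 ± 0.49, for miR-2137 by 4.73 ± 0.40, for miR-133a-5p by 4.03 ± 0.39 and for miR-5099 by 3.36 ± 0.22. miR-133a-5p, the passenger arm of a muscle miRNA, was not called at 1 day (0.20 ± 0.27) and fell at 1 week (-3.82), with 37.2, 53.6 and 89.6 normalized CPM in the MI libraries, against 867, 885 and 804 in the sham libraries. The difference was negative for miR-214-3p (-3.75 ± 0.19), miR-31-5p (-3.62 ± 0.22), miR-541-5p (-3.48 ± 0.24) and miR-434-5p (-3.33 ± 0.25), the last 2 from the imprinted Dlk1-Dio3 domain, where neither was called at 1 day and the changes at 1 week were 3.66 and 3.27.

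Against 8 weeks the change at 1 day was larger for miR-6240 by 8.56 ± 0.50, for miR-2137 by 7.26 ± 0.46, for miR-5099 by 3.98 ± 0.22 and for the leukocyte miRNA miR-223-3p by 3.13 ± 0.32. It was smaller for miR-31-5p (-3.69 ± 0.22), miR-455-3p (-3.31 ± 0.23), miR-214-3p (-3.18 ± 0.18) and miR-199a-5p (-3.09 ± 0.16). All 16 differences kept their direction and their call under every alternative that gave a value.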

How the results depend on the processing

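The number called changed at 1 day was 173 to 180 with 1 library left out (83 to 89 higher, 88 to 97 lower), against 192. The scaling moved the split most: library totals alone and limma on log2(RPM + 1) each gave 159 higher and 32 lower, and limma on log2(RPM + 10) gave 158 and 32. Without a filter on low values 160 of 624 were higher, and with a mean of at least 50 RPM 93 were changed (49 higher, 44 lower), since other numbers of miRNAs were tested. Differences from 1 week were 199 to 210 with 1 library left out (108 to 115 larger, 91 to 99 smaller), 81 larger and 137 smaller with library totals, 375 without a filter (240 smaller) and 126 with a mean of at least 50 RPM (61 larger, 65 smaller). Differences from 8 weeks were 193 to 203 (103 to 111 larger, 87 to 93 smaller), 347 without a filter (166 larger, 181 smaller) and 119 with a mean of at least 50 RPM (58 larger), and upper-quartile factors gave 72 larger, a move whose cause was not tested. mRNAs called were 8310 to 8808 with 1 library left out (4566 to 5162 higher, 3631 to 3822 lower), 4356 higher and 5407 lower with quantile normalization, and 5607 (3093 higher, 2514 lower) with a mean of at least 5 FPKM, where fewer genes were tested. Among 116 named results, 2004 of 2132 alternative values kept the direction and the call, 65 lost the call and 42 gained one. 21 values, of 7 miRNAs, reversed, all with library totals or RPM, by the construction of these scalings; under library totals, log2(RPM + 1) and log2(RPM + 10), in that order, the log2 fold changes at 1 day were 0.36, 0.36 and 0.36 for miR-126a-3p, 0.38, 0.38 and 0.38 for miR-143-3p, 0.21, 0.20 and 0.20 for miR-195a-5p, 0.14, 0.15 and 0.13 for miR-20a-5p, 0.38, 0.38 and 0.33 for miR-214-3p, 0.055, 0.056 and 0.056 for miR-22-3p and 0.34, 0.33 and 0.31 for miR-342-3p. miR-431-5p, 1 of the 3 Dlk1-Dio3 members called higher, lost its call without MI replicate 1 (0.36), MI replicate 2 (0.39), sham replicate 1 (0.34) or sham replicate 2 (0.32).

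The replicate block gave 183 changed miRNAs (87 higher, 96 lower). Deviations of MI and sham libraries with the same replicate number correlated at 0.149, -0.0758 and -0.547, and those with different numbers at -0.404 to 0.557. With 3 libraries a group, these values cannot tell whether the libraries are paired. 2 alternatives, chosen after seeing the data, counted each repeated profile once or left out names without an arm, and both kept the counts of calls at 1 day within 1.5 times. The MI libraries were shallower, and members near 10 RPM rested on the fewest reads.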
